A study of Mus musculus with 6 samples.

Results

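The semaphorin, plexin, ephrin and Slit-Robo guidance genes were examined in LKPR EPCAM+ cells, a mouse skin squamous cell carcinoma line of epithelial cells. They were taken by symbol: semaphorins of classes 3 to 7, plexins, neuropilins, Slits, Robos, ephrins and Eph receptors, 60 of the 49671 genes in the deposited table. Of these, 41 had a mean of at least 20 over the 6 libraries and were tested, and 19 lay below it. Levels are the authors' values, scaled to a total of 20 M per library and rounded. The cells carried Lgr5CreER, p53fl/fl and Rosa26-YFP, so that the floxed p53 gene and the YFP reporter were common to every group. All groups were also infected with pLKO.1-puro lentivirus and selected with puromycin. The vector was empty (EmptyVector), or it lowered Ntn1, the gene of the ligand netrin-1 (KDNTN1), or Unc5b, the gene of a netrin receptor (KDUNC5B). Each of these 3 groups had 2 libraries, from living YFP+ EPCAM+ cells sorted after 6 days of culture. The sources used here give neither the number nor the sequence of the hairpins, and this is a single line. No label states separate cultures within a group, so a p-value compares the groups with a spread between libraries that may be technical.

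Library depth, estimated from the spacing of the values, was 6.54 to 10.2 M reads, and 3 reads were worth 5.90 to 9.17 scaled units. This floor covers counting error only. Ntn1 stood at 1566 and 2588 with the empty vector, at 359 and 431 in the Ntn1 knockdown and at 1319 and 771 in the Unc5b knockdown. Unc5b stood at 1527 and 1573, at 2311 and 2382, and at 419 and 352 in the same order, so each targeted gene was lowest in the libraries labelled as its knockdown. All 12 epithelial markers had a mean of at least 20, with summed levels of 64213 to 64723 with the empty vector, 70951 to 74583 in the Ntn1 knockdown and 63592 to 66960 in the Unc5b knockdown. Single markers moved apart within that sum: Krt5 stood at 287 and 320, 1034 and 1027, and 697 and 776 in this order, Trp63 at 94 and 96, 33 and 31, and 152 and 88, and Cldn4 at 7837 and 8145, 5176 and 4850, and 8192 and 7658.

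Guidance cues were first described as signals that steer growing axons, and epithelia use the same families to place, sort and separate cells. Class 3 semaphorins are secreted and mostly bind neuropilins, which pair with plexins as the signalling subunit, whereas the other vertebrate semaphorins are held at the membrane and bind plexins directly. Slits are secreted ligands of Robo receptors. Ephrins are membrane-bound ligands of the Eph receptor tyrosine kinases, and both partners can signal, which makes contact between neighbouring cells repulsive or adhesive. In skin, Eph receptors and ephrins are known for their part in keratinocyte contacts and differentiation.

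Promoters are printed for a pair of receptor genes that were lower in both knockdowns, Nrp1 and Epha4, and for a pair of semaphorin genes that were higher in the Ntn1 knockdown, Sema3a and Sema4f. Each runs from 250 bases before to 50 bases after the RefSeq start, on the gene's strand (GRCm38.p6). Capitals mark matches to any of 4 motifs searched on both strands, which were AP-1 (TGANTCA), TEAD (GGAATG), the E-box bound by Snail and ZEB factors (CAGGTG, or CACCTG on the other strand) and the GC box (GGGCGG).
Nrp1, chr8:128358823-128359122, plus strand: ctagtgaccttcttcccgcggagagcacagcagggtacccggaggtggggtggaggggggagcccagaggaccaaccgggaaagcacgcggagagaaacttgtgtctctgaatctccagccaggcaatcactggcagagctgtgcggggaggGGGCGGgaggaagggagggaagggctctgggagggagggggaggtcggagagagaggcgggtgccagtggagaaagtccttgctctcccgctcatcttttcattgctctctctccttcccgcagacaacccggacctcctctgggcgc
Epha4, chr1:77515039-77515338, minus strand: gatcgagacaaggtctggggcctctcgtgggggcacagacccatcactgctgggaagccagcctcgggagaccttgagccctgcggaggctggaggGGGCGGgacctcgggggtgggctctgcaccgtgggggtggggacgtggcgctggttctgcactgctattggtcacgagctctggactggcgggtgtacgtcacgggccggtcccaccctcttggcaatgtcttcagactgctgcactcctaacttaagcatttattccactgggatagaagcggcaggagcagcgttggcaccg
Sema3a, chr5:13396534-13396833, plus strand: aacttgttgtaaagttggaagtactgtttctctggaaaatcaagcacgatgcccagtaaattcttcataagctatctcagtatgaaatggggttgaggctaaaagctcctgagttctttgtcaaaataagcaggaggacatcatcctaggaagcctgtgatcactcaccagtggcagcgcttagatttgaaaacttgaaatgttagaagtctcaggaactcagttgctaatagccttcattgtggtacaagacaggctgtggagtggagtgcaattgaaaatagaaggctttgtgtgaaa
Sema4f, chr6:82939720-82940019, minus strand: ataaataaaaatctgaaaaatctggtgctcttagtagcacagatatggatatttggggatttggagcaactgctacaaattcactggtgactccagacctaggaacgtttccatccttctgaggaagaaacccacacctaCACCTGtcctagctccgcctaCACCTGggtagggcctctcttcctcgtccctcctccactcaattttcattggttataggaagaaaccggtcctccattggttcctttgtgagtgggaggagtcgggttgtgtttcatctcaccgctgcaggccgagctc

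The Nrp1 and Epha4 windows each held 1 GC box, starting 98 and 154 bases before the start, and both had a GC content of 64.0%. Sema4f held a pair of E-boxes, written CACCTG on the printed strand, 110 and 89 bases before its start, at a GC content of 48.7%. None of the 4 motifs was found in the Sema3a window, whose GC content was 41.3%. That window lies inside the longer Sema3a gene of GENCODE M21 (chr5:13125414-13602565), so it may not be the start in use. The Nrp1 window also lies inside its GENCODE M21 gene (chr8:128358604-128503363), and the same limit holds for it. Promoters were matched for 53 of the 60 genes. Chromosome 18, which holds Sema6a, was left out of this match, with no such step for the promoters compared with. The match gave 69 starts. The GC box stood in 71.0% of these starts against 35.7% of 32851 promoters of that length, the E-box in 14.5% against 20.2%, the TEAD motif in 11.6% against 14.7% and the AP-1 motif in 4.35% against 7.81%. These are matches of letters, and no binding was measured.

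Per kilobase of exon, the empty vector cells held Plxnb2 (a receptor of class 4 semaphorins) at the highest mean level of the guidance genes, 1843 scaled units per kb. Next came Sema3c, a secreted semaphorin, at 1440, and Epha2, the Eph receptor typical of epithelia, at 1024. The ligands Sema3f and Efna5 followed at 733 and 665, and the receptors Plxna1 and Nrp2 at 729 and 549. Neighbours in this order were close: with the empty vector, Sema3c stood at 1275 and 1605 per kb, Epha2 just below at 1219 and 828, and Plxnb2 just above at 1975 and 1712. Efnb2 at 641 and its receptor Ephb4 at 459 led the B class. Slit2 at 6.84 and Slit1 at 3.72 were low. Nrp1 averaged 324 per kb from libraries as far apart as 147 and 501, so its rank among the genes is loose.

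**Figure D1:**
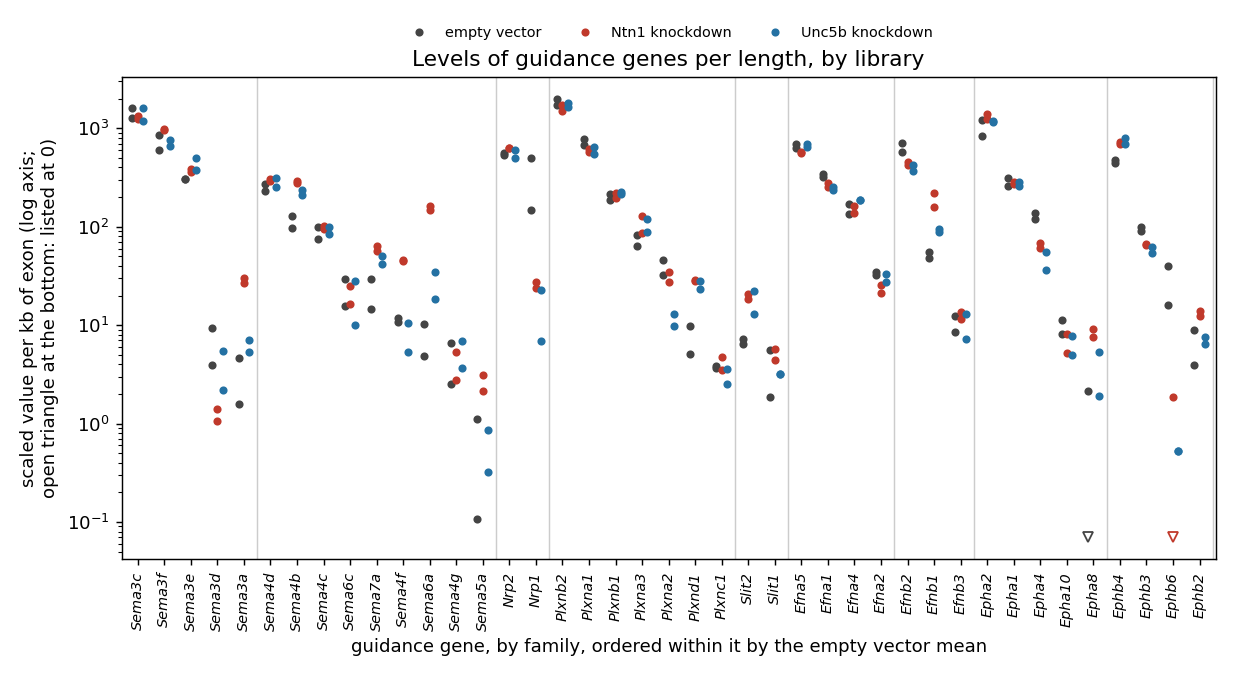
Scaled value per kb of exon (log axis) of the tested guidance genes, by family. Each point is 1 library, coloured by group, and open triangles mark libraries listed at 0. Plxnb2, Sema3c and Epha2 stand highest in the empty vector, and Epha8 and Sema5a lowest.

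Of the 19 genes with a mean under 20, 6 were listed at 0 in every library: Robo2, Robo3, Robo4, Epha3, Epha6 and Epha7. The others were Efna3, Epha5, Ephb1, Plxna4, Plxnb3, Robo1, Sema3b, Sema3g, Sema4a, Sema5b, Sema6b, Sema6d and Slit3. None of the 4 Robo receptors was therefore tested, and the highest of them, Robo1, stood at 4 and 16 with the empty vector and at 0 in the other 4 libraries. The cutoff fell between Plxna4, with a mean of 16.3, and Epha8 (20.5), Slit1 (23.7) and Sema5a (23.8). Sema4a, outside it, stood at 4 and 0 with the empty vector, 12 and 9 in the Ntn1 knockdown and 34 and 28 in the Unc5b knockdown. With no filter on low values, its Unc5b knockdown difference from the empty vector was called (limma adjusted p = 0.0466). Sema6d stood at 31 and 24 in the Ntn1 knockdown against 2 to 9 elsewhere, and was not called without the filter (adjusted p = 0.0954 against the empty vector).

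In the Ntn1 knockdown, more guidance ligands were called higher than lower against the empty vector, and receptors were called both ways. A limma model over 15330 genes called 15 of the 41 tested guidance genes, or 36.6%, where 15.1% of all genes tested were called at an adjusted p under 0.05. Among them 10 were higher (24.4%, against 8.04% of all genes) and 5 lower (12.2%, against 7.06%). By role, 7 of 23 tested ligands rose and 2 fell, and 3 of 18 receptors rose and 3 fell. The median log2 fold change was 0.19 for the guidance genes and -0.02 for all genes. With either Ntn1 knockdown library left out, fewer guidance genes and fewer of all genes were called, with the remaining library assumed to vary like the other groups. The calls of Efnb1, Ephb6, Sema3a, Sema4b and Sema6a held under every alternative that tested them. For other calls, the losses named below are not always complete, as no filter and no trend ended several where this is not stated.

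In the Unc5b knockdown, 12 of the 41 genes were called against the empty vector, or 29.3%, where 12.0% of all genes were. The 6 that rose (14.6%, against 5.90% of all genes) included 4 ligands, and the 6 that fell (14.6%, against 6.07%) included 5 receptors. The median log2 fold change was -0.00, against 0.04 for all genes. Those that rose were Efnb1, Ephb4, Plxnd1, Sema4b, Sema6a and Slit2, and those that fell were Efnb2, Epha4, Ephb3, Ephb6, Nrp1 and Plxna2. In the Ntn1 knockdown Epha8, Sema3a, Sema4f and Sema7a rose besides the same 6 genes, and Sema3d, Efnb2, Epha4, Ephb6 and Nrp1 fell. Both comparisons use the same empty vector libraries, so calls found in both are not independent of each other.

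**Figure D2:**
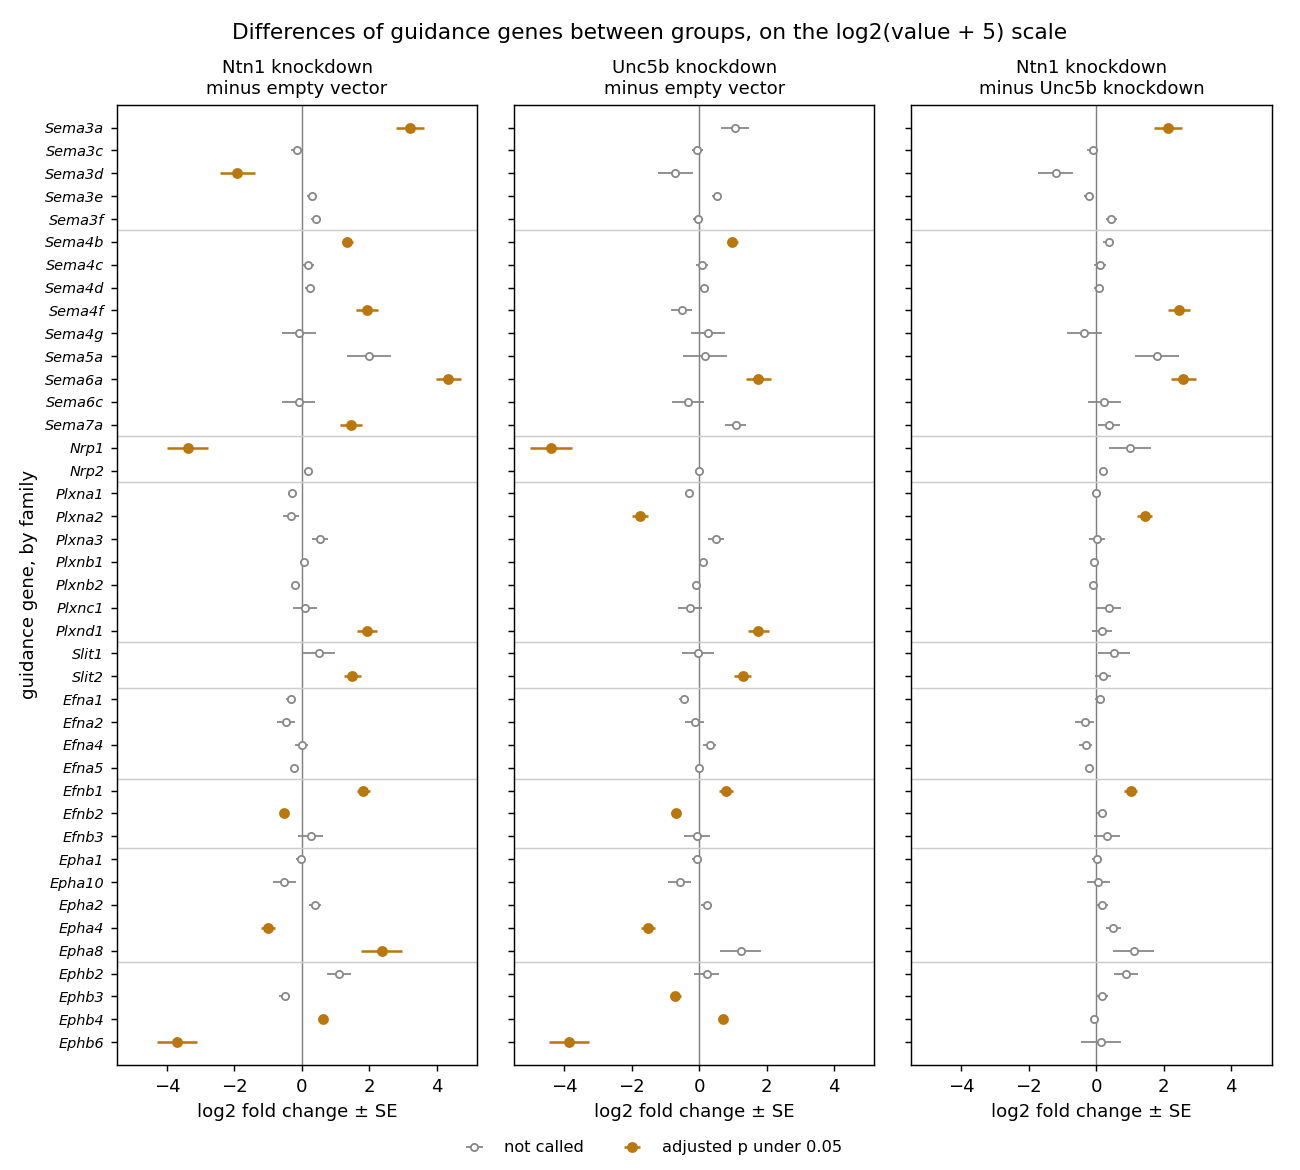
Log2 fold change with its standard error (x axis) of each tested guidance gene (y axis, by family) in the 3 comparisons, from the limma model on log2(value + 5). Filled points had an adjusted p under 0.05: 15 genes in the Ntn1 knockdown against the empty vector, 12 in the Unc5b knockdown and 5 between the knockdowns.

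Among class 3 semaphorins, 5 of 7 genes were tested. Sema3a, the classical repellent ligand of Nrp1, stood at 22 and 64 with the empty vector, 416 and 367 in the Ntn1 knockdown and 98 and 74 in the Unc5b knockdown. The Ntn1 knockdown libraries lay above all the others, by 9.10-fold over the empty vector mean (log2 3.20 ± 0.41 SE, limma adjusted p = 0.00183). That log2 fold change was 2.52 without empty vector library 1 and 3.87 without library 2. In the Unc5b knockdown its difference was not called (log2 1.06 ± 0.41, adjusted p = 0.140), but it was without empty vector library 2 (log2 1.74, adjusted p = 0.00845). Sema3d, a secreted relative next to Sema3a on the chromosome at a distance of 536 kb, stood at 81 and 34, 12 and 9, and 47 and 19 in the same order. It fell in the Ntn1 knockdown, where both libraries were below every other (5.48-fold, log2 -1.91 ± 0.52, adjusted p = 0.0418). That call was lost without empty vector library 1 and without either Ntn1 knockdown library. It was also lost with a pseudocount of 20, no filter, no trend and voom on recovered reads (adjusted p = 0.0786).

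The abundant class 3 genes did not pass the test. Sema3c ran from 8554 to 11462 over the 6 libraries, and its groups overlapped. Sema3e, the ligand of Plxnd1, stood at 2804 and 2833 with the empty vector and at 4653 and 3491 in the Unc5b knockdown, which did not overlap (log2 0.52 ± 0.14, adjusted p = 0.0544). It was called without Unc5b knockdown library 2 (adjusted p = 0.0323). Sema3f, a ligand of Nrp2, stood at 3162 and 4456 with the empty vector and at 4953 and 5128 in the Ntn1 knockdown (log2 0.42, adjusted p = 0.121), and was called without empty vector library 2 (log2 0.67, adjusted p = 0.0107).

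Of the membrane semaphorins, 9 of 13 were tested, and 4 rose in the Ntn1 knockdown and 2 in the Unc5b knockdown, where 8.04% and 5.90% of all genes did. Sema6a, a transmembrane ligand of A-type plexins, stood at 90 and 43 with the empty vector, 1439 and 1287 in the Ntn1 knockdown and 162 and 306 in the Unc5b knockdown. The 3 groups did not overlap. It rose 20.5-fold in the Ntn1 knockdown (log2 4.34 ± 0.37, limma adjusted p = 0.000350). In the Unc5b knockdown it was 3.52-fold higher (log2 1.75 ± 0.37, adjusted p = 0.0186), a call lost without Unc5b knockdown library 2 (log2 1.31, adjusted p = 0.134) and without Ntn1 knockdown library 1 or 2 (0.0596 and 0.0584).

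Sema4b, another transmembrane semaphorin, stood at 719 and 551 with the empty vector, at 1574 and 1654 in the Ntn1 knockdown and at 1323 and 1184 in the Unc5b knockdown. Both knockdowns lay above the empty vector, by 2.54-fold (log2 1.35 ± 0.16, adjusted p = 0.00113) and 1.97-fold (log2 0.99 ± 0.16, adjusted p = 0.00587), under every alternative tried. Sema4f stood at 57 and 62, 243 and 239, and 28 and 56, so that the Ntn1 knockdown alone stood apart. It rose 4.05-fold there (log2 1.93 ± 0.32, adjusted p = 0.00609), and the Unc5b knockdown gave log2 -0.52 (adjusted p = 0.348). Without Ntn1 knockdown library 1 or 2 the Sema4f call was lost, at adjusted p = 0.0728 and 0.0685 with log2 1.92 and 1.94.

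Sema7a, a lipid-anchored semaphorin that also binds integrins, stood at 98 and 48 with the empty vector, 209 and 187 in the Ntn1 knockdown and 137 and 167 in the Unc5b knockdown. Both knockdowns lay above the empty vector libraries. The Ntn1 knockdown was called (2.71-fold, log2 1.46 ± 0.32, adjusted p = 0.0198). That call was lost with no filter, with no trend and without Ntn1 knockdown library 1 or 2. The Unc5b knockdown was not called (log2 1.08, adjusted p = 0.0679), except without empty vector library 1 (log2 1.56). Sema5a stood at 2 and 21, 40 and 58, and 6 and 16, a difference that missed the threshold in the Ntn1 knockdown (log2 1.98 ± 0.65, adjusted p = 0.0769) and passed it without empty vector library 2 (adjusted p = 0.0125). Sema4c, Sema4d, a ligand of Plxnb1, Sema4g and Sema6c had adjusted p from 0.280 to 0.926 against the empty vector.

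**Figure D3:**
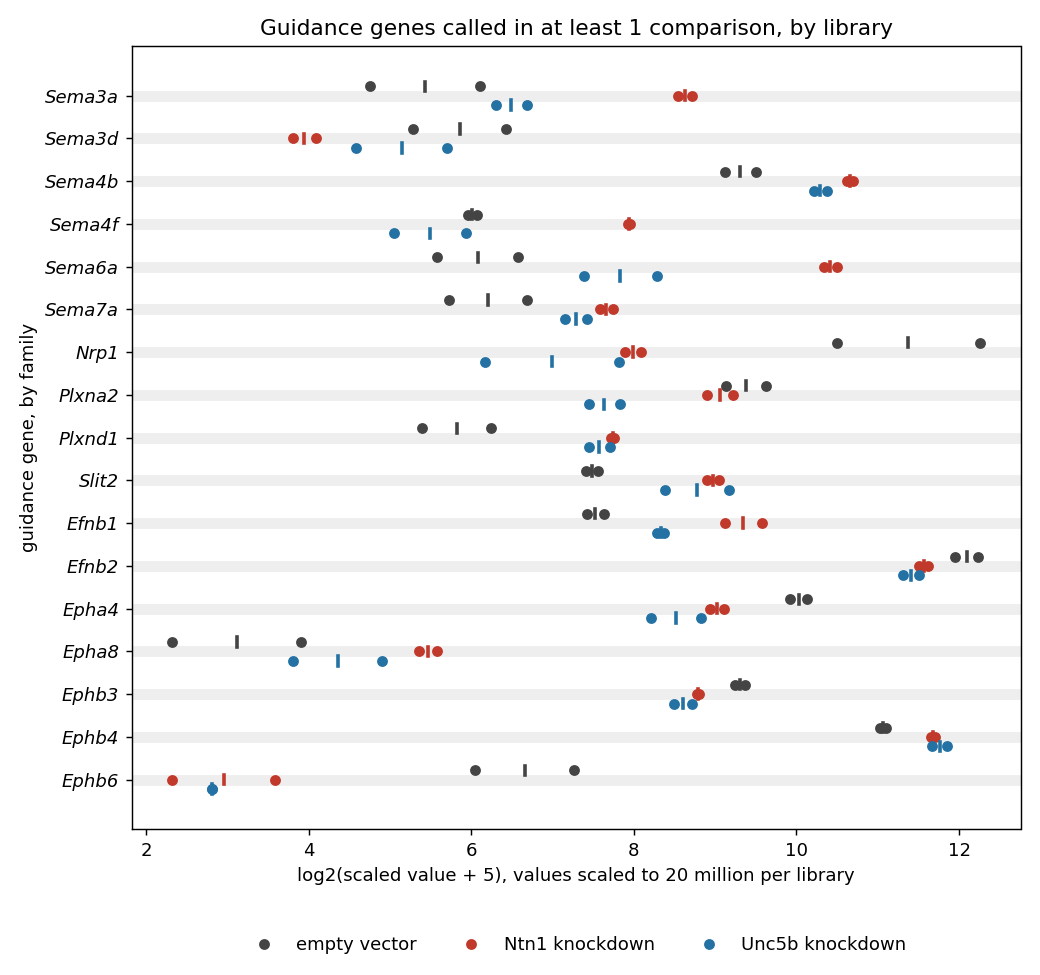
Log2(scaled value + 5) in each library (points) and the mean of each group (bars) for the 17 guidance genes called in at least 1 comparison, by family. Nrp1 and Ephb6 lie far lower in both knockdowns than with the empty vector, and Sema6a and Sema3a are highest in the Ntn1 knockdown.

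The neuropilins differed from each other. Nrp1, the co-receptor of Sema3a and of VEGF, stood at 1439 and 4898 with the empty vector, 233 and 266 in the Ntn1 knockdown and 220 and 67 in the Unc5b knockdown. Both empty vector libraries were above all 4 knockdown libraries, and they were also far from each other. It fell 12.7-fold in the Ntn1 knockdown (log2 -3.39 ± 0.61, limma adjusted p = 0.00818) and 22.1-fold in the Unc5b knockdown (log2 -4.39 ± 0.61, adjusted p = 0.00339). Without empty vector library 1 the log2 fold changes were -4.27 and -5.27, and without library 2 they were -2.51 and -3.50. The Unc5b knockdown gave -5.21 without its library 1 and -3.56 without its library 2. The Ntn1 knockdown call was lost without its library 1 or 2 (adjusted p = 0.0875 and 0.0764). Its gene lies at chr8:128358604-128503363 on the plus strand and shares 80 exon bases with the microRNA gene Mir1903. Nrp2, the co-receptor for Sema3f, stood at 6395 and 6617, 7466 and 7427, and 7141 and 5890, with adjusted p of 0.309 and 0.987.

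In these bulk libraries, fewer cells that express a gene and less RNA per cell cannot be told apart. Sums over markers of other cell types differed between some of the groups as well, but the markers of a list did not move together. The summed level of 10 melanocyte and nerve markers was 1181 to 1581 with the empty vector, 396 to 423 in the Ntn1 knockdown and 353 to 401 in the Unc5b knockdown. Only 3 of the 10 had a mean of at least 20, most of the sum was Mitf, Dct was at 0 and Sox10 was at 4 or less. Pmel went the other way in the Ntn1 knockdown, at 22 and 30, 48 and 58, and 24 and 49 in this order. The immune markers, 3 of 10 symbols with such a mean, summed to 1434 to 1679, 644 to 770 and 1258 to 1844, mostly Csf1r. Csf1r was lowest in the Ntn1 knockdown, where Cd14 and Cd68 were highest. Cd14 stood at 134 and 137, 190 and 202, and 184 and 160. Cd68 stood at 81 and 25, 107 and 122, and 83 and 90. Nkg7, Adgre1 and Lyz2 were at 0, and Ptprc at 5 or less. Fibroblast markers, 2 of 8 with such a mean, summed to 136 to 137, 211 to 311 and 139 to 237. Endothelial markers, 3 of 8 with such a mean, summed to 271 to 332, 382 to 428 and 292 to 362, with Emcn at 0. Of these, Cdh5 was at 0 in both empty vector libraries, at 86 and 113 in the Ntn1 knockdown and at 2 and 0 in the Unc5b knockdown. Pecam1 ran only from 88 to 107 over all libraries, and Flt1 from 163 to 256 with overlapping groups. The part of these markers in the differences of guidance genes was not tested.

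Among plexins, 7 of 9 were tested. Plxnd1, the receptor of Sema3e, stood at 37 and 71 with the empty vector, 212 and 205 in the Ntn1 knockdown and 169 and 204 in the Unc5b knockdown. Both knockdowns were above both empty vector libraries, 3.86-fold (log2 1.92 ± 0.30, limma adjusted p = 0.00482) and 3.45-fold (log2 1.76 ± 0.30, adjusted p = 0.00850). The calls were lost without Ntn1 knockdown library 1 or 2 (0.0640 and 0.0576) and without Unc5b knockdown library 2 (0.0794), respectively. Plxna2, a receptor of Sema6a, stood at 558 and 784, 473 and 593, and 222 and 169 in the same order. It fell 3.43-fold in the Unc5b knockdown, below all the other libraries (log2 -1.75 ± 0.23, adjusted p = 0.00255), under every alternative tried, and gave log2 -0.32 in the Ntn1 knockdown (adjusted p = 0.391). The other 5, Plxna1, Plxna3, Plxnb1, Plxnb2 and Plxnc1, were not called, at adjusted p from 0.168 to 0.879. Plxnb2 ran from 11632 to 15244.

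Slit2, the secreted ligand of Robo receptors, stood at 165 and 183 with the empty vector, 473 and 523 in the Ntn1 knockdown and 569 and 329 in the Unc5b knockdown. All 4 knockdown libraries were above the empty vector libraries. It rose 2.86-fold (log2 1.49 ± 0.25, limma adjusted p = 0.00636) and 2.58-fold (log2 1.29 ± 0.25, adjusted p = 0.0141). The calls were lost without Ntn1 knockdown library 1 or 2 (0.0656 and 0.0818) and without Unc5b knockdown library 1 (log2 0.90, adjusted p = 0.0625), respectively. Slit1 ran from 11 to 34 and was not called (adjusted p = 0.525 and 0.969).

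Ephrin-B ligands moved in opposite directions. Efnb1 stood at 193 and 167 with the empty vector, 761 and 550 in the Ntn1 knockdown and 308 and 327 in the Unc5b knockdown, 3 groups that did not overlap. It rose 3.64-fold in the Ntn1 knockdown (log2 1.82 ± 0.20, limma adjusted p = 0.000979), under every alternative tried. The Unc5b knockdown was 1.76-fold higher (log2 0.80 ± 0.20, adjusted p = 0.0368), a call lost under 9 of 15 alternatives, among them voom on recovered reads (0.0585), leaving out empty vector library 2 (0.0991), leaving out Unc5b knockdown library 1 or 2 (0.114 and 0.184) and leaving out Ntn1 knockdown library 1 or 2 (0.0635 and 0.0604).

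Efnb2, the preferred ligand of Ephb4, stood at 3968 and 4815, 3146 and 2902, and 2535 and 2898, lower in every knockdown library than with the empty vector. It fell 1.45-fold (log2 -0.53 ± 0.13, adjusted p = 0.0311) and 1.62-fold (log2 -0.69 ± 0.13, adjusted p = 0.0134). The Ntn1 knockdown call was lost without its library 1 or 2 (0.153 and 0.236) and without empty vector library 2 (0.0961), and the Unc5b knockdown call without its library 1 (0.0808) or Ntn1 knockdown library 1 (0.0501). Efnb3 ran from 23 to 43 and was not called. The 4 tested ephrin-A ligands (Efna1, Efna2, Efna4 and Efna5) were not called either, with limma adjusted p from 0.0994 to 0.991. Efna1, a ligand of Epha2, had the lowest of these, at 627 and 592 with the empty vector against 464 and 435 in the Unc5b knockdown.

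Of the EphA receptors, 5 of 9 were tested. Epha4, which binds ephrins of both classes, stood at 1120 and 963 with the empty vector, 549 and 486 in the Ntn1 knockdown and 291 and 449 in the Unc5b knockdown. Both knockdowns lay below the empty vector without overlap. It fell 2.01-fold (SE 0.21 on the log2 scale, limma adjusted p = 0.0168) and 2.81-fold (log2 -1.51 ± 0.21, adjusted p = 0.00371), the latter under every alternative tried. The Ntn1 knockdown call was lost without its library 1 or 2 (0.101 and 0.151). Epha8 stood at 10 and 0, 36 and 43, and 9 and 25, from 5 and 0 reads with the empty vector. Its Ntn1 knockdown libraries were the highest (log2 2.36 ± 0.61, adjusted p = 0.0356). The log2 was 3.15 without empty vector library 1 and 1.56 without library 2, where the call was lost. The call was also lost without Ntn1 knockdown library 1 or 2, and with a pseudocount of 1, no filter, no trend and the replicate block.

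Epha2 stood at 5699 and 3869, 6522 and 5819, and 5388 and 5589, with no call (adjusted p = 0.170 and 0.457). Empty vector library 2 was the lowest, and without empty vector library 1 both knockdowns were called higher (log2 0.67, adjusted p = 0.00757, and log2 0.50, adjusted p = 0.0273). Epha1 and Epha10 were not called (adjusted p from 0.340 to 0.864).

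All 4 tested EphB receptors are described. Ephb4 stood at 2077 and 2186 with the empty vector, 3210 and 3333 in the Ntn1 knockdown and 3706 and 3240 in the Unc5b knockdown. Every knockdown library was above both empty vector libraries, with rises of 1.53-fold (log2 0.62 ± 0.11, limma adjusted p = 0.00906) and 1.63-fold (log2 0.70 ± 0.11, adjusted p = 0.00660). The Ntn1 knockdown call was lost without its library 1 or 2 (0.0954 and 0.119), and the Unc5b knockdown call held under every alternative tried. Ephb3 stood at 601 and 656, 433 and 443, and 415 and 357, below the empty vector in both knockdowns. It was called lower in the Unc5b knockdown (1.63-fold, log2 -0.70 ± 0.16, adjusted p = 0.0232) and not in the Ntn1 knockdown (log2 -0.51 ± 0.16, adjusted p = 0.0600). Leaving out any of 5 libraries ended the Unc5b call: empty vector library 2 (0.0720), Ntn1 knockdown library 1 or 2 (0.0717 and 0.0714) and Unc5b knockdown library 1 or 2 (0.0539 and 0.153).

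Ephb6, an Eph receptor without kinase activity, stood at 61 and 149 with the empty vector, 7 and 0 in the Ntn1 knockdown and 2 and 2 in the Unc5b knockdown. It was near or at 0 in all 4 knockdown libraries, with 96 recovered reads over the empty vector libraries against 3 and 2 over the knockdowns. By these estimated counts it was 25.3-fold lower in the Ntn1 knockdown (95% exact interval 8.40 to 125, counting error only; limma adjusted p = 0.00477) and 45.6-fold lower in the Unc5b knockdown (12.3 to 382; adjusted p = 0.00494), and both calls held under every alternative that tested it. Its log2 fold changes, -3.70 and -3.85, were -4.31 and -4.46 without empty vector library 1 and -3.09 and -3.24 without library 2, and the former was -4.33 and -3.07 without Ntn1 knockdown library 1 and 2. Ephb2 stood at 49 and 112, 176 and 156, and 81 and 95. Its Ntn1 knockdown libraries were the highest (log2 1.10 ± 0.36, adjusted p = 0.0768), and it was called there without empty vector library 2 (log2 1.66, adjusted p = 0.00855).

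Set directly against each other, the knockdowns differed in 5 guidance genes, all higher in the Ntn1 knockdown. These were 12.2% of the 41 tested, where 7.10% of all genes were called, 4.15% higher and 2.95% lower. At an unadjusted p under 0.05, limma gave 10 guidance genes higher and 1 lower, which was Sema3d. Voom on recovered reads gave 10 higher and 0 lower, and limma with no trend gave 6 higher and 0 lower. The share of all genes at that threshold was not taken, so these counts have no background beside them and cannot show a leaning of the guidance genes. Among all genes called at an adjusted p under 0.05, the share of higher genes was 58.5%, and 69.2% with upper-quartile scaling. Sema4f was 5.74-fold higher than in the Unc5b knockdown (log2 2.45 ± 0.32, adjusted p = 0.00492), and Sema6a 5.82-fold (log2 2.58 ± 0.37, adjusted p = 0.00697). Sema3a was 4.55-fold higher (log2 2.13 ± 0.41, adjusted p = 0.0201), Plxna2 2.73-fold (log2 1.43 ± 0.23, adjusted p = 0.0103) and Efnb1 2.06-fold (log2 1.02 ± 0.20, adjusted p = 0.0225). For the Plxna2 receptor it was the Unc5b knockdown that lay apart from the empty vector, and for the 4 ligands the Ntn1 knockdown lay further from it. Without either Ntn1 knockdown library all 5 calls were lost, at adjusted p from 0.0818 to 0.246. Without Unc5b knockdown library 1, Efnb1 (0.123) and Sema3a (0.0809) were lost, and without library 2, Efnb1 (0.109), Sema3a (0.132) and Plxna2 (0.0737).

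Genes listed as transducers or partners of semaphorin and plexin signals, inside the cell or at its surface, were called in both directions. Of 28 tested, 7 rose and 4 fell in the Ntn1 knockdown, and 4 rose and 4 fell in the Unc5b knockdown, with median log2 fold changes of 0.02 and 0.04. Over all genes tested, 8.04% rose and 7.06% fell in the former, with a median of -0.02, and 5.90% rose and 6.07% fell in the latter, with a median of 0.04. Mical2, an oxidase that disassembles actin, stood at 45 and 194 with the empty vector, 685 and 783 in the Ntn1 knockdown and 613 and 632 in the Unc5b knockdown, and rose in both (limma adjusted p = 0.00786 and 0.0136). Rnd1, a small GTPase that binds plexins, stood at 130 and 112, 430 and 413, and 440 and 382, and rose in both too (adjusted p = 0.000731 and 0.00102). Its relative Rnd3 stood at 1346 and 1918, 885 and 868, and 575 and 843, and fell in both (adjusted p = 0.0316 and 0.0108). Dpysl2, a mediator of Sema3a signals in axons, stood at 1549 and 1278, 388 and 434, and 1588 and 1193, and fell in the Ntn1 knockdown (log2 -1.77 ± 0.18, adjusted p = 0.000653). Its relative Dpysl3 stood at 49 and 149, 155 and 122, and 4 and 0, and fell in the Unc5b knockdown (adjusted p = 0.00342). The knockdowns differed from each other in 3 genes of the list, Dpysl3 and Fyn higher and Dpysl2 lower in the Ntn1 knockdown. Of all genes tested, 4.15% were called higher and 2.95% lower in that comparison.

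Among 25 tested transducers of ephrin and Eph signals, 7 rose and 3 fell in the Ntn1 knockdown, and 2 rose and 4 fell in the Unc5b knockdown. Of all genes, 15.1% and 12.0% were called in these comparisons. The median log2 fold changes were 0.22 and -0.01. Kalrn, a guanine nucleotide exchange factor, stood at 114 and 117 with the empty vector, 78 and 89 in the Ntn1 knockdown and 0 and 2 in the Unc5b knockdown, and fell in the latter (limma adjusted p = 0.000357). Vav2, an exchange factor recruited by Eph receptors, stood at 2508 and 2815, 1284 and 1339, and 1674 and 1658, and fell in both knockdowns (log2 -1.02 ± 0.12, adjusted p = 0.00109, and -0.67 ± 0.12, adjusted p = 0.00841). Fyn, a Src-family kinase held in this list and the semaphorin list, stood at 212 and 368, 782 and 847, and 212 and 206, and rose in the Ntn1 knockdown (log2 1.53 ± 0.25, adjusted p = 0.00538). Between the knockdowns 7 of the 25 were higher in the Ntn1 knockdown, as were 4.15% of all genes.

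Of 27 tested transducers and co-factors of Slit and Robo, 7 rose and 2 fell in the Ntn1 knockdown, and 6 rose and 1 fell in the Unc5b knockdown, with medians of 0.20 and 0.07, where 15.1% and 12.0% of all genes were called. Sdc3, a heparan sulphate proteoglycan, stood at 175 and 114 with the empty vector, 613 and 529 in the Ntn1 knockdown and 395 and 454 in the Unc5b knockdown, and rose in both (limma adjusted p = 0.00112 and 0.00419). Srgap1, a GTPase-activating protein that binds Robo, stood at 61 and 144, 33 and 15, and 9 and 5, and fell in both (log2 -1.85 ± 0.51, adjusted p = 0.0439, and -3.07 ± 0.51, adjusted p = 0.00699). Between the knockdowns 2 were higher and 1 lower in the Ntn1 knockdown, against 4.15% and 2.95% of all genes. With either Ntn1 knockdown library left out, fewer genes of each transducer list were called in that knockdown, and fewer of all genes.

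Nrp1 also serves VEGF receptors, and 5 of 8 VEGF ligands and receptors were tested. Flt4, the receptor of VEGF-C, stood at 1262 and 1392 with the empty vector, 416 and 440 in the Ntn1 knockdown and 51 and 28 in the Unc5b knockdown. The 3 groups did not overlap, and Flt4 fell in both knockdowns (log2 -1.62 ± 0.25, limma adjusted p = 0.00443, and -4.95 ± 0.25, adjusted p = 7.35e-05). Vegfa stood at 6273 and 7445, 5008 and 5400, and 5298 and 4357, and was called lower in the Unc5b knockdown (log2 -0.51 ± 0.14, adjusted p = 0.0469). The median log2 fold changes of the 5 were -0.39 and -0.31.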

How the data were processed

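RNA was sequenced with Ovation Solo libraries. STAR, Picard and HTSeq, without versions, and the GRCm38 (mm10) build come from the submitters' processing notes. The deposited scores are whole numbers with a total near 20 M per library, so they were read as counts scaled and rounded by the authors. The sources used here do not give the scaling step, duplicate handling or strand setting. Opposite-strand exon overlaps of guidance genes, from 33 bases in Ephb4 (with Zan) to 970 in Plxna1 (10.7% of its exon bases), cannot be separated.

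Every value was a whole multiple of 1 step per library within a tolerance of 0.5, from which the depth and whole reads were estimated. Rounding to whole numbers moves a value by up to 0.5, so a stricter tolerance could not be met and decides nothing. The values were not treated as counts, and read numbers, their intervals and voom rest on the estimated step. The main test was limma 3.58.1 (R 4.3.3) with a mean-variance trend on log2(value + 5), 3 groups in 1 model over all 6 libraries, genes with a mean of at least 20, 2-sided, Benjamini-Hochberg adjusted over 15330 genes. A gene was called at an adjusted p under 0.05. The log2(value + 5) scale understates changes of low genes; folds are ratios of group means as deposited. With 2 libraries a group, exact permutation p-values start at 0.333 and were not used. The fit was tested on simulated data.

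Genes named are those called in at least 1 comparison, other tested members at least by range or class, and up to 4 called genes a list; of these, several are given by count. Part of the genotype shared by all groups is not reported here. Members, gene lists and tests were chosen with earlier results of these data known. Alternatives were other pseudocounts, filters and scalings, no trend, a replicate block, leaving out each library and, added after seeing the data, limma voom on recovered reads. Gene positions and exon lengths are from GENCODE M21 (49412 of 49671 identifiers found); promoters are from RefSeq (GRCm38.p6).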

Additional observations from a re-analysis of the deposited data

How the results depend on the processing

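Of the 32 calls of guidance genes, recomputed 476 times over 15 alternatives, 383 kept their call, 93 lost it and none changed sign. Median-of-ratios and upper-quartile scaling changed none of them. No filter lost 16 of the 32, no trend 12 and the replicate block 6. The losses given with single genes above leave some of these out. For the Ntn1 knockdown against the empty vector, the 15 guidance genes became 9 with no filter and 9 with no trend, and ran from 5 to 16 with 1 library left out. All genes there went from 2314 to 1289 with no filter, 1462 with no trend and 1465 with the replicate block, and from 507 to 2769 with 1 library left out. For the Unc5b knockdown, the 12 guidance genes became 7 with no filter and ran from 8 to 15 with 1 library left out. All genes there went from 1835 to 791 with no filter, 1115 with no trend and 1102 with the replicate block, and from 680 to 2428 with 1 library left out. Between the knockdowns, the 5 guidance genes became 1 with no filter, 3 with no trend and 3 with the replicate block, and ran from 0 to 8 with 1 library left out. The lowest count came without Ntn1 knockdown library 1 or 2, where that group held 1 library. All genes there went from 1088 to 302 with no filter, 454 with no trend and 459 with the replicate block, and from 34 to 1842 with 1 library left out. The cause was not tested. Voom on recovered reads, chosen after seeing the data, called 14, 11 and 5 guidance genes. Epha2 in the Unc5b knockdown, not called, had log2 -0.05 (adjusted p = 0.839) without empty vector library 2 and 0.50 (adjusted p = 0.0273) without library 1.

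Differences between replicate numbers 1 and 2 correlated across 15330 genes at 0.16, -0.45 and -0.169 for the pairs of groups. With 1 difference per group, these correlations cannot show whether replicate numbers pair the libraries. With the replicate block 13, 10 and 3 guidance genes were called. Depth limits the genes near 20, such as Epha8.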
